A study of Homo sapiens with 15 samples.

Results

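BCR, ABL1 and NUP214 are the 3 genes that lie at the known fusion breakpoints of K562, a human chronic myeloid leukemia cell line, and they are 3 of the 63827 genes annotated on chromosomes 1 to 22 and X. They were chosen by name, with the gene and 200 kb on each side taken as the window of each. BCR spans chr22:23522552-23660224, ABL1 spans chr9:133589268-133763062 and NUP214 spans chr9:134000981-134109091 in hg19, and all 3 lie on the plus strand.

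BCR encodes a protein that carries a kinase activity of its own, ABL1 encodes a non-receptor tyrosine kinase, and NUP214 encodes a nucleoporin on the cytoplasmic side of the nuclear pore. The Philadelphia translocation joins the 5′ part of BCR to the 3′ part of ABL1, and the fusion kinase is permanently active. K562 is known to carry this fusion in many copies and to carry a fusion of NUP214 with XKR3, a gene on chromosome 22. A stretch of the genome that is present in more copies gives more reads, so the end of an amplified stretch appears as a step in read density on the reference genome.

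SSiNGLe-P1 maps 3′-OH termini of DNA in crosslinked nuclei after digestion with P1, a nuclease that cuts single-stranded DNA. The 15 samples of wild-type K562 were 3 biological replicates each of untreated nuclei and of nuclei digested with 0.01, 0.1, 1 or 10 U of the enzyme. Every sample came from the same crosslinked cell line, no normal cells were included, and copies of the genome per cell were not measured, so more copies of a stretch and more termini per copy cannot be told apart. The measure was the number of unique sites, a site being a position and strand with at least 1 terminus.

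The samples held 2057216 to 3881950 unique sites and 2258825 to 4253274 termini. Densities are given as levels, where a level of 1 is the median of the 5 kb bins of the genome in that sample. CDKN2A, which is known to be deleted in K562, served as a check of the cell line and held 1 site in all 15 samples together, where a level of 1 would have given 307 sites. Of 28211 windows of 100 kb in the genome, 62 had a level of 5 or more in the untreated samples, and 39 of these lay on chromosome 22 and 9 on chromosome 9.

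The density of sites changed abruptly inside all 3 genes. Coming from the left on chromosome 22, it was high through the first 14 exons of BCR and fell in intron 14. On chromosome 9 it was low at the first annotated start of ABL1, rose inside the gene upstream of its canonical transcript, stayed high across ABL1 and the genes that follow it, fell in intron 29 of NUP214 and fell again beyond the gene.

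The places of these steps were located to 20 bp from the sites of all 15 samples. The sequences around them are shown because they surround the best-fitting place of each step, 140 bases each from the plus strand of hg19, with capitals for the first 20 bases after the step as fitted. The steps fitted in single amounts of P1 reached beyond the printed bases, so these mark a best fit and not a measured junction.
BCR intron 14, chr22:23632681-23632820: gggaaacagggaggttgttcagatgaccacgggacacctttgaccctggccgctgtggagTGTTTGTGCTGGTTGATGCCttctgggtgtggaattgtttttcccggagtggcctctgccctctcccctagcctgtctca
ABL1 upstream part, chr9:133607461-133607600: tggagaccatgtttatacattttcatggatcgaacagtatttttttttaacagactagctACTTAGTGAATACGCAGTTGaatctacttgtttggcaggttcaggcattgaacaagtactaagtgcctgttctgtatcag
NUP214 intron 29, chr9:134074421-134074560: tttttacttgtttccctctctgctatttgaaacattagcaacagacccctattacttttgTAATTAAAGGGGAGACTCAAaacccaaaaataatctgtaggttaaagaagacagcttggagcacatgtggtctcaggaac
Outer end beyond NUP214, chr9:134155481-134155620: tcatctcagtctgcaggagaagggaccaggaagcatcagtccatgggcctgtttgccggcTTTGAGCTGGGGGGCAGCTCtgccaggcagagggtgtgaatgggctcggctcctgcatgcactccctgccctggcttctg

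The step in BCR lay at 23632741, which is 141 bp after the end of exon 14 and 1987 bp before the start of exon 15 of the 23 exons of the canonical transcript. In the 5 kb before it the untreated samples held 125, 60 and 76 sites, and in the 5 kb after it they held 13, 7 and 1. Over all 15 samples these 5 kb held 1218 sites before and 105 after, with 59 to 125 and 1 to 13 per sample, so that no sample overlapped between the sides. Located separately in each P1 amount, the step lay between 23632741 and 23632901.

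The step in ABL1 lay at 133607521, which is 103120 bp upstream of exon 1 of the canonical transcript at 133710641 and inside the first intron of the longer isoform. Here the untreated samples held 8, 6 and 7 sites in the 5 kb before the step and 44, 33 and 32 in the 5 kb after it. Over all samples 97 sites lay before and 545 after, with 3 to 12 and 24 to 50 per sample. All exons of the canonical transcript, which encode the kinase domain, therefore lay on the dense side.

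The step in NUP214 lay at 134074481, which is 79 bp after the end of exon 29 and 2553 bp before the start of exon 30 of 36. In the 5 kb before it the untreated samples held 114, 43 and 60 sites, against 36, 15 and 19 in the 5 kb after it. Over all samples 1049 sites lay before and 312 after. Each sample was higher before the step, although the counts after it in the deepest samples came close to those before it in the shallowest.

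The outer end lay at 134155541, between genes and 2789 bp upstream of the start of FAM78A. The 15 samples together held 785 sites in the 5 kb before it and 149 in the 5 kb after it, with 41 to 75 and 2 to 21 per sample. The positions found in the separate P1 amounts ranged from 134155481 to 134155741 here, from 133607521 to 133607641 in ABL1 and from 134074361 to 134074721 in NUP214. Each step was thus found close to the same place in every amount of P1.

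**Figure D1:**
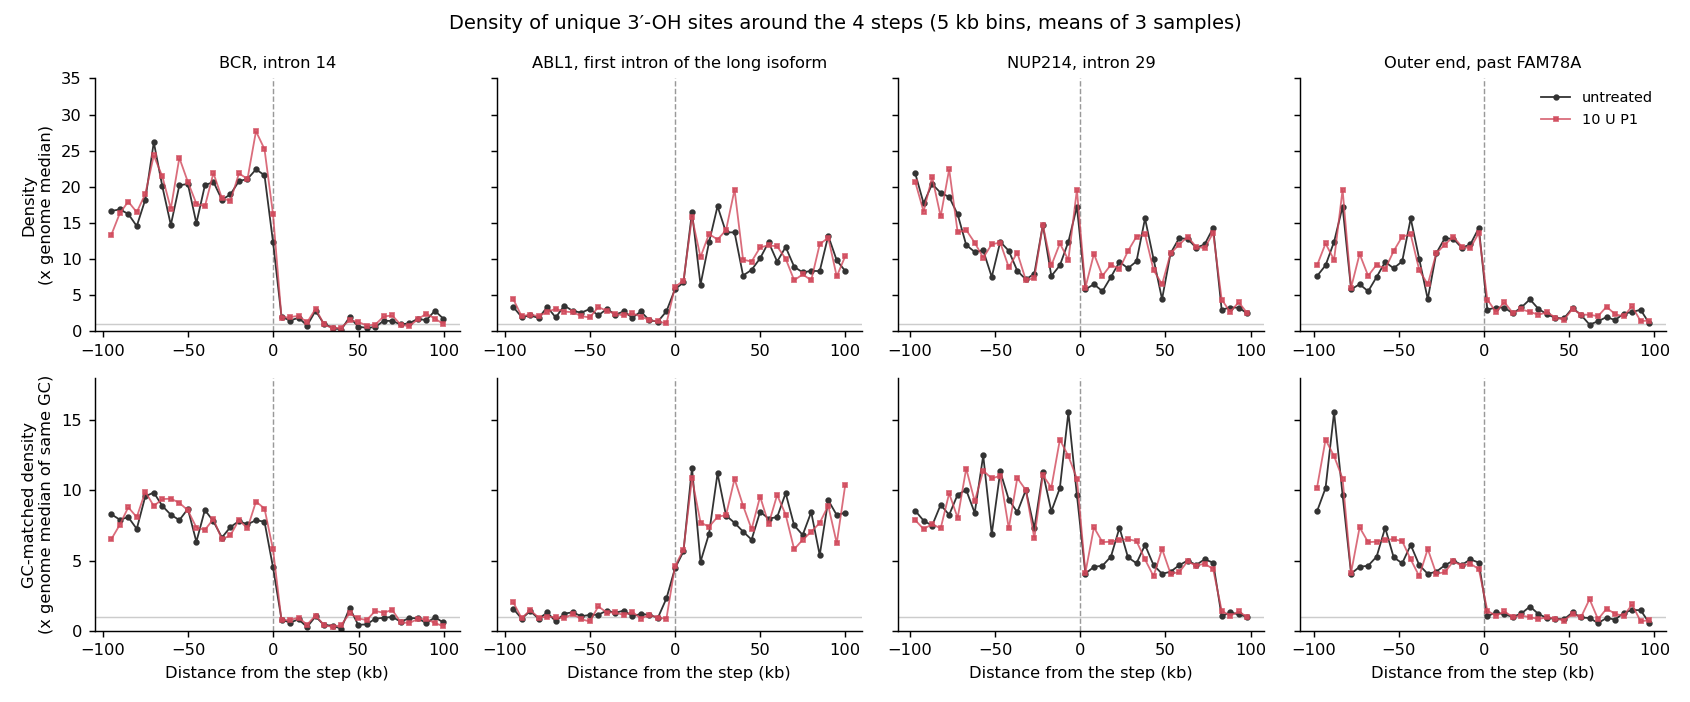
Density of unique sites in 5 kb bins (y axis, multiples of the genome median) against the distance from each of the 4 steps (x axis, kb), untreated and with 10 U of P1, each line the mean of 3 samples. The upper row shows levels at face value and the lower row levels against bins of the same GC content, and a reader should see the same steps in both rows and under both conditions.

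The single largest change in each window, taken as the main measure, was found with 5 kb bins. In BCR it fell at 23635001 in all 15 samples. In the window of NUP214 it was the outer end, at 134155001 in all 15 samples, and not the smaller step inside the gene. In ABL1 it fell between 133605001 and 133615001, and 7 of 15 samples had it in the same bin as the pooled untreated samples, 133615001.

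The step at BCR was the highest of the 3. Over the 100 kb on each side, the dense side was 18.8 ± 0.611 times the genome median in untreated nuclei (SD, n = 3) and the other side 1.33 ± 0.149. At ABL1 the dense side had a level of 10.8 ± 0.591 against 2.80 ± 0.222, and at the outer end beyond NUP214 it had a level of 10.2 ± 0.183 against 2.44 ± 0.321. The sides at ABL1 were cut at 133615001, beyond the step as refined to 133607521, so dense bins were counted on its other side. This raises the 2.80 and lowers the fold given below. The part of the window up to 133607000 had a level of 2.24 ± 0.110.

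The steps were located in the untreated samples, so their size was tested in the 12 samples treated with P1. All samples share the same cell line, so a step found without P1 was likely to recur with it. The test covers library preparation and counting only. The dense side at BCR was 13.4-fold denser than the other side, with 10.7-fold to 16.2-fold in single samples. The fold was 3.93 at ABL1, with a range of 3.55 to 4.48, and 4.19 beyond NUP214, with a range of 3.59 to 4.85. Each step had the same direction in 12 of 12 samples, with an exact two-sided sign-flip permutation p of 0.000488, the smallest that 12 samples allow, and an adjusted p of 0.000488 over the 3 steps. In the untreated pool, 2.06% of 558784 boundaries between neighbouring 100 kb flanks in the genome had a step of 2-fold or more in either direction, and steps at least as large as these made up 0.184% at BCR, 0.679% at ABL1 and 0.594% beyond NUP214. The 3 steps were chosen in this same pool as the main change of each window, and the other boundaries were not chosen. The shares therefore describe their size and do not test it. The sizes did not differ detectably between the 5 P1 amounts, with exact permutation p values of 0.832, 0.186 and 0.954 within replicate numbers and adjusted p values of 0.954, 0.558 and 0.954.

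The heights of the dense sides were compared at face value and matched on GC content. At face value the dense side of BCR was 1.74-fold that of ABL1 and 1.81-fold that of NUP214, higher in 15 of 15 samples in both pairs, with an exact sign-flip permutation p adjusted over 3 pairs of 9.16e-05. The dense side of ABL1 was 1.04-fold that of NUP214, higher in 10 of 15 samples, with an exact p of 0.0405 before and after adjustment. The genome as a whole had a median level of 0.565 in bins of 35% GC, 0.988 at 40%, 2.13 at 50% and 2.66 at 55% in untreated nuclei. Divided by the median of bins of the same GC content, the dense sides of BCR and ABL1 had levels of 7.80 and 7.89 and did not differ detectably, with an exact permutation p of 0.871. The other pairs differed after GC matching, where the log2 ratio was 0.45 for BCR over NUP214 and 0.45 for ABL1 over NUP214, with an adjusted exact permutation p of 9.16e-05 for both. The 100 kb on the dense side of the outer end include the lower, middle stretch described next.

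Levels matched on GC were therefore divided into stretches of even density in 1 kb bins. This gave 4 borders in the untreated samples and in each P1 amount. Those in BCR and ABL1 were the same in all 5, that in NUP214 lay at 134076001 without P1 and at 134075001 with every amount of P1, and the outer end lay at 134155001 with 10 U and at 134156001 otherwise. The borders of the untreated samples were used, and they gave 6 stretches that all held close to equal amounts of GC, from 49.1% to 51.0%. The dense stretch on chromosome 22 ran for 311 kb from the left end of the window to 23633000. On chromosome 9 a dense stretch of 469 kb ran from 133607001 to 134076000, and a middle stretch of 80 kb followed to 134156000.

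The dense stretches on both chromosomes had almost the same GC-matched level. On chromosome 22 it was 7.86, 7.93 and 7.62 in the untreated samples, and on chromosome 9 it was 7.93, 8.19 and 8.25. Over all 15 samples the former ranged from 7.53 to 8.09 and the latter from 7.85 to 8.25, so the ranges overlapped. In the 12 treated samples the stretch on chromosome 9 was 1.02-fold higher, in 10 of 12 samples, with an exact sign-flip permutation p of 0.00977. At face value the direction turned, and the stretch on chromosome 22 was 1.09-fold higher in 12 of 12 samples (exact p = 0.000488).

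The middle stretch, which holds the last exons of NUP214 and FAM78A, had GC-matched levels of 4.80, 4.92 and 4.97 in untreated nuclei and 4.80 to 5.46 over all samples. It did not overlap with the dense stretch before it or with the stretch after it. The flanks were close to the genome median, with 1.13 ± 0.0766 before the step in ABL1 and 1.05 ± 0.0848 beyond the outer end (SD, n = 3). The flank after the step in BCR was lower, at 0.706 ± 0.0359, and its highest value over the 15 samples, 0.781, was below the lowest of the other flanks, 0.952.

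The folds between these stretches were measured in the 12 treated samples. The fold at BCR was 10.8, from 9.82 to 12.4 in single samples. It was 7.06 at ABL1, from 6.53 to 7.53, and 4.70 at the outer end, from 4.11 to 5.33. The step in intron 29 of NUP214 was the smallest, with a fold of 1.58 and a range of 1.5 to 1.65. All 4 had the same direction in 12 of 12 samples (exact sign-flip permutation p = 0.000488, adjusted p = 0.00061 over 5 comparisons). As the samples share the same cell line, this test too covers library preparation and counting only.

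The folds were also compared between the 5 amounts of P1. At ABL1 the fold was 7.21 in untreated nuclei, between 7.20 and 7.24 at 0.01 to 1 U and 6.59 at 10 U, with an exact permutation p of 0.0464 and an adjusted p of 0.232. When the dense stretch was taken only to 133733000, where the levels at face value have a border, the GC-matched fold gave an adjusted exact permutation p of 0.00667 over 6 borders. From untreated nuclei to 10 U, the mean levels of that part were 7.69, 7.84, 7.96, 7.56 and 7.84. Those before the step were 1.13, 1.11, 1.09, 1.11 and 1.21. The dense part was thus highest at 0.1 U and lowest at 1 U, and the flank was highest at 10 U. For the other folds the adjusted p over the 5 amounts was 0.847 or higher.

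**Figure D2:**
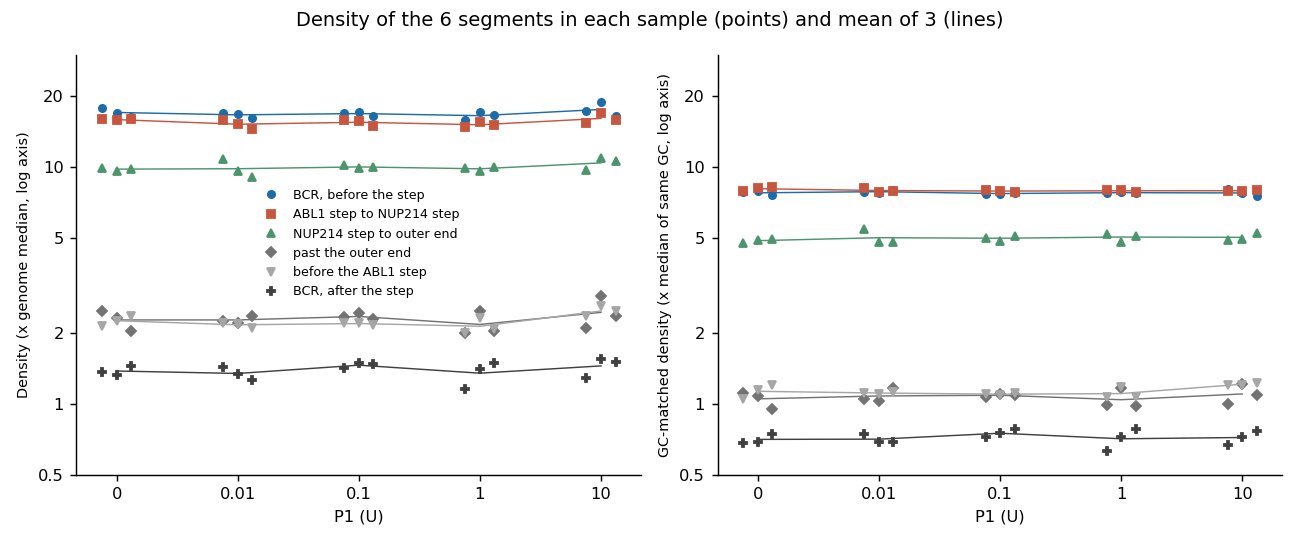
Level of the 6 stretches (y axis, logarithmic, multiples of the genome median) by amount of P1 (x axis, U), with points for the 15 samples and lines through the means of 3, at face value on the left and matched on GC on the right. The dense stretches on both chromosomes coincide between 7.53 and 8.25 after GC matching, the middle stretch lies near 5, and the flanks lie between 0.628 and 1.23.

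Levels at face value showed 3 further borders inside the dense stretches, where GC content changed too. The level rose 2.02-fold at 23400001 on chromosome 22, from a stretch of 42.5% GC to one of 54.0%. It rose 1.77-fold at 133733001, inside ABL1, and fell 1.84-fold at 134002001, just after the start of NUP214. Matched on GC, the same changes were 1.06-fold upwards (10 of 12 treated samples, adjusted exact permutation p = 0.0211), 1.01-fold downwards (7 of 12, p = 0.598) and 1.15-fold downwards (12 of 12, adjusted exact permutation p = 0.000732). The stretch after the last of these includes the middle stretch.

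The other protein-coding genes of the windows were dense or not with the stretch that holds them. All 7 genes within the dense stretches (RSPH14, GNAZ and RAB36 upstream of BCR, and QRFP, FIBCD1, LAMC3 and AIF1L between ABL1 and NUP214) had untreated levels at face value of 19.8 to 28.7, above the means of their stretches of 17.1 on chromosome 22 and 15.9 on chromosome 9. These genes held 53.2% to 59.4% GC, against 51.0% and 49.1% in the stretches, and the part of GC content in their levels was not tested. FAM78A in the middle stretch had 12.7 ± 0.403 (SD, n = 3). The 6 genes outside had 2.03 to 3.03, and the highest value of any of these in the 15 samples, 3.66, was below the lowest of any gene in the dense stretches, 17.6. LAMC3 encodes a laminin chain, GNAZ a G-protein alpha subunit and RAB36 a small GTPase. Of the 16 other protein-coding genes, 2 were too short for a level.

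No change in the number of sites in BCR, ABL1 or NUP214 was detectable at any amount of P1. BCR had levels over the gene body of 15.7, 15.6 and 14.7 in untreated nuclei, 15.4, 15.3 and 14.8 with 0.01 U, 15.8, 15.7 and 15.1 with 0.1 U, 14.4, 15.4 and 14.9 with 1 U and 16.8, 17.3 and 15 with 10 U. The groups overlapped, with the highest 2 samples in the 10 U group.

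ABL1, of which the first part lies outside the dense stretch, had levels of 10.2, 10.8 and 11.3 in untreated nuclei, 11.2, 10.5 and 10.9 with 0.01 U, 11.4, 11.4 and 10.7 with 0.1 U, 10.4, 11 and 9.77 with 1 U and 11.1, 11.5 and 10.9 with 10 U. NUP214 had 9.76, 9.71 and 9.72 in untreated nuclei, 10.3, 9.67 and 9.11 with 0.01 U, 9.91, 9.29 and 9.37 with 0.1 U, 9.87, 9.69 and 9.74 with 1 U and 10.6, 10.9 and 10.8 with 10 U. In ABL1 every amount overlapped with untreated nuclei, whereas the 3 samples of NUP214 with 10 U lay above the 3 without P1. The share of all genes whose samples separate in this way is not given here, and the test below did not call this change.

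In edgeR's quasi-likelihood test over 27857 genes, 0 of the 3 genes passed an adjusted p of 0.05 at any amount, where 0% of genes passed with 0.01 U, 0.0108% with 0.1 U, 0.0108% with 1 U and 0.14% with 10 U. None of the 3 had an unadjusted p under 0.05 either, and DESeq2 called 0 genes in the whole genome. The log2 fold changes of the 3 genes lay between -0.04 and 0.10. The largest was that of NUP214 with 10 U, at 0.10 (SE 0.0543, 95% interval -0.01 to 0.20, edgeR adjusted p = 0.576). Over the 3 genes and 4 amounts the 95% intervals reached from 0.904-fold to 1.15-fold, so larger changes of a whole gene body lay outside them. Of the 14 other genes of the windows, 0 were called at any amount, with 2, 1, 1 and 3 genes at an unadjusted p under 0.05 in order of amount, as had 1344 to 2700 of all 27857 genes. LAMC3 was among them at every amount and always lower, with log2 fold changes of -0.10, -0.12, -0.16 and -0.15 in order of amount. Its smallest edgeR adjusted p was 0.179, and the 4 amounts share the same untreated samples. QRFP, which encodes a neuropeptide, had the lowest log2 fold change of the 14 genes with 10 U, at -0.50 (SE 0.144, edgeR adjusted p = 0.124).

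**Figure D3:**
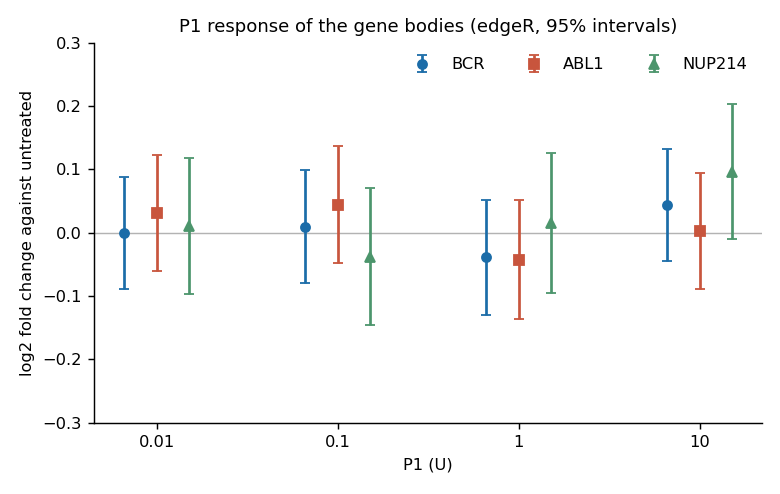
The log2 fold change of unique sites over the gene body against untreated nuclei (y axis) by amount of P1 (x axis, U) for BCR, ABL1 and NUP214, with 95% intervals from edgeR. All 12 values lie between -0.04 and 0.10 and every interval includes 0.

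Smaller windows within the dense and middle stretches gave few calls. Of 14 bins of 50 kb, 0 were called at any amount, where 0%, 0.00895%, 0.00716% and 0.157% of all 55889 bins were called in order of amount. At an unadjusted p under 0.05 there were 1, 1, 2 and 0 of the 14 and 2615, 2711, 2955 and 4645 of all bins, and DESeq2 called 0 of them. Of 169 bins of 5 kb, 0 were called at 0.01, 0.1 and 1 U, where 0%, 0.000914% and 0.00457% of all 109441 bins were called, and 9, 3 and 9 of the 169 had an unadjusted p under 0.05, as had 4728, 4914 and 5213 of all bins. With 10 U, 2 of the 169 were called against 0.202% of all bins, and 23 had an unadjusted p under 0.05, as had 8552 of all bins.

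One of these bins rose and the other fell. The bin at chr9:133830001-133835000, between FIBCD1 and LAMC3, held 182, 54 and 64 sites in untreated nuclei and 136, 201 and 126 with 10 U, with a log2 fold change of 0.64 (SE 0.144, edgeR adjusted p = 0.00938). The bin at chr9:133765001-133770000, just after the end of ABL1, held 143, 89 and 91 sites without P1 and 61, 106 and 55 with 10 U, with a log2 fold change of -0.61 (SE 0.157, edgeR adjusted p = 0.0455). Untreated replicate 1 was also the deepest sample, with 3881950 unique sites against 2167616 and 2265016 in the others without P1. Without any single sample of these 6, either 0 or 1 of the 2 bins was called, and DESeq2 called neither. The first bin kept its call without untreated replicate 1, at a log2 fold change of 1.02 (edgeR adjusted p = 3.4e-05), kept it without 10 U replicate 1, and lost it without any one of the other 4. The second kept its call only without 10 U replicate 2. Against the same untreated samples, the first bin was lower with 0.01 U (log2 fold change -0.45) and with 0.1 U (-0.48), and it was not called there.

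The window within 1 kb of the annotated start was compared with the stretch around it in each gene. Within 1 kb of its start NUP214 had levels at face value of 23.5, 30.2 and 31.3 without P1, where its stretch had a mean of 15.9. With 10 U it had 17.7, 20.6 and 14.6, and the 2 groups did not overlap. The means were 27.3 ± 5.71 with 0.01 U, 26.7 ± 4.97 with 0.1 U and 25.5 ± 5.09 with 1 U, and these overlapped with untreated nuclei (SD, n = 3 each).

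The start of BCR had 15.4, 16.4 and 15.7 without P1 and 13.6, 9.47 and 10.9 with 10 U, which did not overlap, while its stretch had 17.1 and 17.6. At the canonical start of ABL1, 14.1 ± 4.66 without P1 and 10.5 ± 3.54 with 10 U overlapped (SD, n = 3 each). The start of the longer ABL1 isoform lies outside the dense stretch and had 3.84 ± 1.10 without P1. These windows held 71 to 554 sites over all samples and were not tested. The share of all starts at which untreated nuclei and 10 U did not overlap was not counted. Over the genome, 2.48 ± 0.0435% of sites lay within 1 kb of a protein-coding start without P1 and 2.07 ± 0.0927% with 10 U (SD, n = 3 each).

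Within the dense and middle stretches, which hold all of NUP214, the exons were denser than the introns in ABL1 and NUP214. The ratio of exon to intron density had a median of 2.11 over the 15 samples in NUP214, from 1.65 to 2.72, and of 1.57 in ABL1, from 1.15 to 2.09, and it was above 1 in 15 of 15 samples in both genes. In BCR the median was 1.04, and the ratio was above 1 in 11 of 15 samples. GC content moved with these ratios in NUP214 and ABL1, with 52.0% in exons and 41.4% in introns of NUP214 and 59.3% and 45.6% in ABL1, although BCR had 65.6% and 52.4%. The part of GC content in these ratios was not tested.

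The strand of a site in the deposited lists was taken as that of the alignment of read 2, so that the terminus itself would lie on the other strand. The lists do not name the strand, and on chromosomes 9 and 22 every site obeyed the filter on T-rich sequence under this reading. BCR had 49.7% of its 23778 sites on the plus strand, ABL1 48.3% of 21032 and NUP214 45.8% of 11938. Single samples of NUP214 ranged from 40.3% to 48.6%, all below 50%. ABL1 ranged from 44.3% to 50.8%, with 13 of 15 samples below 50%, and BCR from 47.7% to 52.1%.

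In edgeR's test of the strand ratio over 21608 genes, 2 of the 3 genes passed, where 6.48% of all genes passed in either direction. The fit scaled each strand of a sample to its own total over the genes tested, so its ratios are relative to the balance of all these genes. On that scale NUP214 had a plus over minus ratio of 0.862 (log2 -0.21, SE 0.028, edgeR adjusted p = 4.45e-11). ABL1 had one of 0.953 (log2 -0.07, SE 0.0214, edgeR adjusted p = 0.0261). BCR had 1.01 (edgeR adjusted p = 0.836), although 49.7% of its own sites lay on the plus strand. The authors had removed termini with T-rich sequence before them, which takes different numbers of positions from the strands of a gene with unequal A and T. Of the positions that this filter could keep, 47.0% lay on the plus strand in NUP214, where 26.3% of bases are A and 31.7% are T, and 48.4% in ABL1 and 48.8% in BCR.

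Counted per position that the filter could keep, the order of the genes was the same and the calls changed. The log2 ratio of NUP214 was then -0.04 (edgeR adjusted p = 0.564) and that of ABL1 turned to 0.03 (edgeR adjusted p = 0.664), while that of BCR rose to 0.08 (edgeR adjusted p = 0.0138). These ratios too are relative to all genes tested. The share of all genes that passed in this count is not given here, so the call of BCR cannot be set against it. The strand ratio of 0 of the 3 genes changed with any amount of P1, with a smallest edgeR adjusted p of 0.835 and 0 genes at an unadjusted p under 0.05, where 0%, 0%, 0.00926% and 0.00463% of all genes passed in order of amount.

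**Figure D4:**
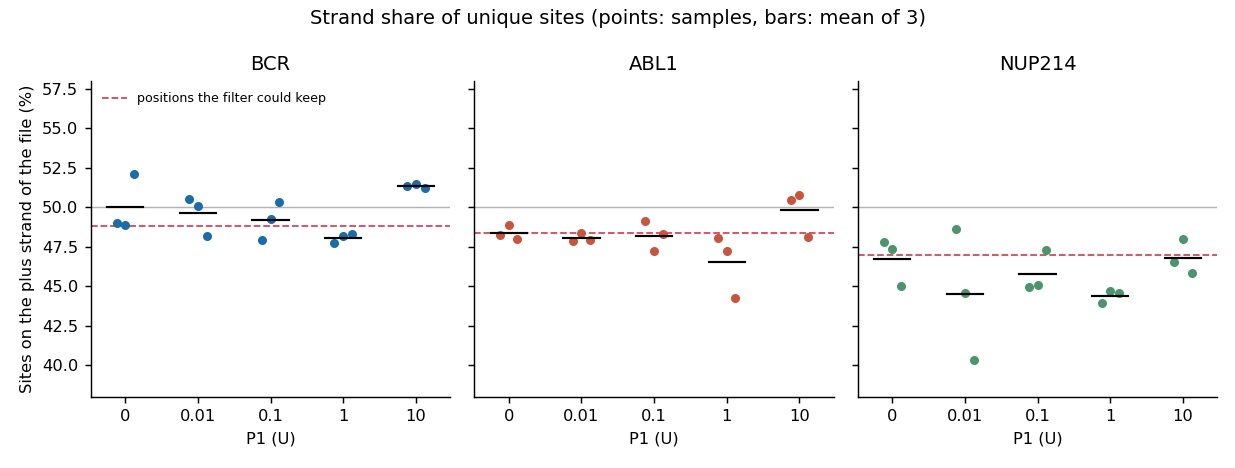
Percent of unique sites on the plus strand of the deposited lists (y axis) by amount of P1 (x axis, U) in BCR, ABL1 and NUP214, with points for samples, bars for means of 3 and a dashed line at the share of positions that the filter on T-rich sequence could keep. NUP214 lies below 50% in all 15 samples and around its dashed line at 47.0%.

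Most positions in the 3 genes were seen in a single sample. BCR had sites at 19850 positions, ABL1 at 17895 and NUP214 at 10167, counting strands apart, and 84.4%, 86.2% and 86.6% of these had a site in 1 sample of 15. Positions with a site in 3 or more samples made up 3.21%, 2.74% and 2.86%. The position seen most often was in intron 1 of ABL1, with a site in 9 samples and 13 termini in all, at most 3 of them in a single sample.

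Of the positions of each gene that were seen in the most samples, 5 are printed with 20 bases on each side, read on the strand of the alignment, as examples of where sites recurred. The capital is the position itself.
BCR intron 5, chr22:23612499-23612539, plus strand: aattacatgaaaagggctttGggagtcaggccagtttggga
BCR intron 10, chr22:23629085-23629125, minus strand: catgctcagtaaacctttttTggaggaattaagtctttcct
ABL1 intron 1, chr9:133728446-133728486, minus strand: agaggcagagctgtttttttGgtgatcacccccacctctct
NUP214 intron 15, chr9:134025842-134025882, minus strand: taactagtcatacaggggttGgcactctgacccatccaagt
NUP214 intron 27, chr9:134068234-134068274, minus strand: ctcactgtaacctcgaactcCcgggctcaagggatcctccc

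Of these, the position in intron 10 of BCR had sites in 8 samples and in 0 of the 3 untreated samples. The one in intron 5 of BCR had sites in 8 samples and the one in ABL1 in 9, with 2 untreated samples in each case. The 2 of NUP214 had sites in 8 and 7 samples, 1 of them untreated.

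Recurring positions differed from single ones in their letters. TTT followed by G at the position was found at 0.39% of the 741323 positions that the filter could keep in the 3 genes, at 0.959% of those with a site in 1 sample, 3.43% in 2 samples, 9.89% in 3 or 4 samples and 18.9% of the 95 positions in 5 or more samples. G at the position rose from 23.9% of all such positions to 41.6% of those in 1 sample and 61.1% of those in 5 or more. These shares are over positions of the reference and not over samples, and they are given as a description. Reads began with a T stretch that the authors trimmed, and its part in these letters was not tested.

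The regions that the authors called as enriched against the untreated sample of the same number were crowded into the dense stretches. The 12 lists of the treated samples held 6115 to 32065 regions, and BCR held 33 to 114 of them, ABL1 21 to 81 and NUP214 8 to 43. Per 100 kb there were 28.3 to 98.4 regions in the dense stretch of chromosome 22, 27.7 to 75.3 in that of chromosome 9 and 17.5 to 38.8 in the middle stretch. In the flanks there were 0 to 3.25, so no list overlapped between dense stretch and flank.

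The share of regions in these stretches was above their share of sites. Together they held 0.364% to 0.403% of the sites of a treated sample and 2.15% to 4.72% of its regions, a ratio of 5.34 to 13. Between 14% and 31.7% of their sites lay inside a region, against 1.10% to 4.18% of all sites. The regions there had a lower deposited fold over the control, with medians of 5.56 to 71.9 against 67.7 to 120 elsewhere, and fewer lacked control sites altogether, 28.8% to 66.8% against 73.2% to 94.0%. These ranges are over the 12 lists and were not tested.

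The genes whose sample-to-sample course was most like that of each of the 3 genes were looked up. Over the 15 samples, the log2 level of BCR correlated most with those of TRIM59 (Pearson r = 0.893), DGKZ (0.888) and GTF3C1 (0.864) among 7755 protein-coding genes with a mean of at least 50 sites outside the windows. ABL1 correlated most with CEMIP2 (0.835), CHMP4B (0.824) and APAF1 (0.822). NUP214 correlated most with KCNK5 (0.926), CEP72 (0.912) and PPM1H (0.827). These are the highest of many coefficients over 15 samples that share depth and P1 amount, and the log2 levels of the 3 genes had an SD of 0.06 to 0.08 over the samples.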

How the data were processed

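Per the labels, 3′-OH termini were sequenced in 15 K562 samples, 3 per P1 amount. The authors kept reads with the expected tails, aligned them with BWA 0.7.12 to hg19 (GRCh37), removed termini with more than 40% T in the 20 bases before them, and deposited the termini as a count for every position and strand. SICER 1.1, run by the authors on pairs of a treated and an untreated sample with the same number, gave the deposited regions with their site counts, p-value and fold. The mitochondrial lists were not used here. The reads carry no molecular identifiers that the sources name, so floors cover counting error only. The intervals from edgeR come from its quasi-likelihood fit and include variation between replicates as well as counting error.

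Groups and replicate numbers came from the sample titles. Depth was 2057216 to 3881950 unique sites per sample, and 3 replicates per group limit the precision. Genes came from a GENCODE annotation lifted to this build. Unique sites per kb were divided by the sample's median over 566853 bins of 5 kb, interpolated within counts, and for GC-matched levels by the median of bins of the same GC content. Steps were placed with a Poisson model and tested with exact permutation tests. Gene bodies, bins and strands were tested with edgeR 4.0.16 (quasi-likelihood, at least 10 sites in at least 3 samples, Benjamini-Hochberg) in R 4.3.3. DESeq2 1.42.0 was an alternative for gene bodies and bins. The fits of gene bodies and bins used TMM and carried the replicate number as a block, as the authors paired samples by it. Strand fits asked for these sites on each strand, used the totals of each strand without TMM and carried the sample as a block. Named were the 3 genes, protein-coding genes of the windows, CDKN2A, the 3 genes most correlated with each and the 3 positions of each seen in the most samples. Genes and lists were chosen with earlier results of these data known, and the GC-matched stretches, 5 kb bins, starts, exons and letters after densities were seen. Some results, and a position among those named, are not reported here. The alternatives were other bins, flanks, scales, filters and left-out samples. The scripts, in Python 3.11.15, were tested on simulated data.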

Additional observations from a re-analysis of the deposited data

How the results depend on the processing

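The sizes of the steps kept their direction and passed under all alternatives tried, with an exact permutation p of 0.000977 in the fits without 1 treated sample, the smallest these allow, and their place moved to 23633001 and 23640001 in BCR, 133608001 and 133610001 in ABL1 and 134156001 and 134160001 beyond NUP214 with 1 and 10 kb bins, and to 133610001 in ABL1 in the treated samples. Dense-side levels moved most with GC matching, to 7.80 at BCR, 7.89 at ABL1 and 5.63 at NUP214, and with the genome mean as the scale, to 15.2, 8.73 and 8.23. Flanks of 50 and 150 kb gave 11.8 and 12.1 at ABL1, flanks of 50 kb gave 11.4 at NUP214, all termini gave 10.4 at NUP214, and positions the filter could keep gave 16.6 at BCR and 9.52 at NUP214. The log2 ratio of the dense sides of BCR and ABL1 fell to 0.00283 after GC matching (exact permutation p = 0.871). That of ABL1 and NUP214 no longer passed with 50 kb flanks (0.052, exact permutation p = 0.113) or thinned samples (0.038, exact p = 0.0703), nor in 8 of 15 fits without 1 sample, over a range of 0.042 to 0.062, and it rose to 0.45 with GC matching and 0.23 with 150 kb flanks (adjusted exact permutation p = 9.16e-05 and 6.1e-05). With 50 kb flanks the step at ABL1 differed between amounts of P1, with exact permutation p = 0.0154 and an adjusted p of 0.0463. The cause was not tested.

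The P1 responses of the 3 genes stayed between -0.09 and 0.12 over 21 settings, with 0 calls and a smallest adjusted p of 0.508, and signs close to 0 turned. Without a filter the log2 change was -0.000715 in NUP214 at 0.01 U and -6.25e-05 in BCR at 0.1 U, with the upper quartile it was -0.0098 in ABL1 at 10 U, with all termini 0.015 in BCR at 0.01 U, and with a GC offset, chosen after seeing the data, 0.041 in BCR and -0.014 in NUP214 at 0.01 U. Leaving out samples gave -0.019 to 0.013 in BCR, -0.016 to 0.071 in ABL1 and -0.018 to 0.042 in NUP214 at 0.01 U, -0.0087 to 0.025 in BCR and -0.00024 to 0.085 in ABL1 at 0.1 U, -0.086 to 0.0014 in ABL1 at 1 U and -0.043 to 0.042 in ABL1 at 10 U. The bins of 50 kb had 0 calls in all 84 alternatives. Per position the filter could keep, log2 strand ratios relative to all genes tested were 0.079 in BCR, 0.025 in ABL1 and -0.040 in NUP214. That of ABL1 lost its call in 4 of 15 fits without 1 sample, over -0.079 to -0.058.

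The replicate numbers did not pair the samples, since deviations of same-numbered samples correlated between -0.018 and 0.038 and none of 30 pairs exceeded 0.1. Without the replicate block the response of NUP214 at 10 U was 0.092 (edgeR adjusted p = 0.615), genes called with 10 U rose from 39 to 42, and no call of the 3 genes changed.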

Other observations

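The dense stretch at BCR began far upstream of the gene. With 5 kb bins matched on GC, the level in untreated nuclei was 7.62 ± 0.0716 over chr22:23000001-23635000 (SD, n = 3), and 5.84 ± 0.261 over chr22:22685001-23000000, the part next to it. Further towards the centromere it was 5.49 ± 0.148 over chr22:21910001-22575000, 4.22 ± 0.0784 over chr22:20705001-21465000 and 3.79 ± 0.0431 over chr22:18950001-20330000, with lower stretches between them. With 10 U of P1 the level was 7.66 ± 0.152 from chr22:22995001-23635000 and 0.759 ± 0.0166 beyond it to 24660000. These borders were found from the values and were not tested.

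Near XKR3, the known fusion partner of NUP214, the level was 3.58 ± 0.392 over chr22:17005001-17240000 and 1.47 ± 0.0608 over the stretch that followed in untreated nuclei (SD, n = 3). The border lay at 17240001 in the untreated samples and with 0.01, 0.1 and 1 U. With 10 U it lay at 17150001, and the stretch before it had a level of 4.21 ± 0.204 (SD, n = 3). These are levels of stretches and not of XKR3, and the place of the gene against the border is not given here. The untreated level of 3.58 before the border was below the 4.89 ± 0.0863 of the middle stretch that holds the last exons of NUP214. It was also below the 8.12 ± 0.171 of the dense stretch on chromosome 9, which holds NUP214 up to exon 29.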
